A study of Homo sapiens with 6 samples.

Results

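The kinesin motor family was described in SK-Hep1, an established human cell line derived from liver cancer, after transfection with an anti-miR-21 oligonucleotide and after mock treatment. Members were all probe sets annotated to 1 gene whose symbol begins with KIF or KIFC and a digit. This gave 91 of the 54613 non-control probe sets, from 45 of the 19775 genes with a probe set of their own. Of these, 85 probe sets belonged to 41 motor genes and 6 to 4 antisense RNA genes (KIF1C-AS1, KIF9-AS1, KIF23-AS1 and KIF25-AS1), which share the name but encode no motor.

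The anti-miR-21 group (3 arrays) was cells given 20 nM of anti-miR-21 by lipid transfection and collected 16 hours later, and the mock group (3 arrays) was cells handled in the same way without the oligonucleotide. The design text calls the mock agent PBS, so no control oligonucleotide was present and effects of miR-21 blockade and of any transfected oligonucleotide cannot be told apart. RNA is labelled as total RNA, although the collection protocol cites an Argonaute immunoprecipitation procedure. Replicates are labelled as biological, but nothing says when or how their cultures were set up, so the p values cover only the spread seen among these arrays. Anti-miR-21 is directed against miR-21, whose mature sequence (RefSeq, GRCh38.p14) is shown because it is the molecule targeted here, with the seed at bases 2 to 8 in capitals.
hsa-miR-21-5p: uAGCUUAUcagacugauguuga

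Kinesins are motor proteins that use ATP hydrolysis to move along microtubules or to shorten them. One set works in cell division, where it separates spindle poles, aligns chromosomes and builds the midzone needed for cytokinesis, and its transcripts are made mainly in the late cell cycle. Another set carries organelles, vesicles, RNA and ciliary cargo in interphase, and several of its members are largely restricted to neurons. The motors were divided here into 13 mitotic genes, 17 transport genes and 11 others, among them genes with roles in cilia, Hedgehog signalling or microtubule turnover. KIF2A was placed among the others, and an alternative counted it as mitotic.

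Arrays were similar in some measures of quality and differed in others. The number of probe sets at or above a log2 value of 4 ran from 22277 to 22591 over the arrays. On the first principal component, which held 50.4% of the variance, anti-miR-21 replicate 1 lay at 3.51, apart from replicates 2 and 3 at 20.11 and 19.63 and from the mock arrays at -19.95 to -7.25. The 3' minus 5' signal of the ACTB control was 0.595 ± 0.009 in anti-miR-21 and 0.564 ± 0.069 in mock cells (log2 units, SD, n = 3 each), and that of GAPDH was -0.271 ± 0.012 in anti-miR-21 and -0.270 ± 0.011 in mock cells (log2 units, SD, n = 3 each). Hepatocyte markers ALB, APOA1 and TTR stayed below a mean of 4 and were thus absent by this filter. So were 5 of 6 endothelial markers. The hepatocyte markers SERPINA1 and AFP averaged 11.9 and 4.22. All 4 mesenchymal markers were above 4, with VIM at 15.7. Of 4 epithelial markers, KRT18, KRT8 and EPCAM averaged 15.2, 14.7 and 7.33, and CDH1 was below the filter at 2.39. In bulk RNA, fewer cells in a given state and less RNA per cell cannot be told apart.

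SK-Hep1 cells expressed most kinesin genes. With expression set at a mean log2 value of at least 4 over the 6 arrays, 29 of 41 motor genes were expressed, through 50 of their 85 probe sets. Among mitotic kinesins, 12 of 13 were expressed, all with representative probe sets between 9.59 and 12.9. KIF2B, a close relative of KIF2C, was the exception at 1.80. Of 17 transport kinesins, 13 were expressed, with representatives between 4.94 and 13.5. The 4 that were not were KIF1A, KIF5A, KIF17 and KIF21B, at 2.57, 3.21, 1.61 and 3.50, all known mainly from neurons. Among the other kinesins 4 of 11 were expressed. Those below the filter included KIF6, KIF19 and KIF27, which are known from motile cilia, at 2.75, 2.66 and 2.64.

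Markers of the cells in which these unexpressed motors are best known were mixed. Of 4 neuronal markers, MAP2 and RBFOX3 lay at 2.84 and 2.96, whereas TUBB3 and SNAP25 lay at 14.4 and 8.21. Of 3 ciliated cell markers, RSPH1 and DNAH5 were below 4 and FOXJ1 was at 7.78. On a log2 scale, the sum of the neuronal markers was 14.3 to 14.4 with anti-miR-21 and 14.4 to 14.5 in mock. That sum was almost all TUBB3, read by a probe set of the x type, whose probes may also bind other transcripts. The part of neuronal markers in kinesin levels was not tested. At the filter, the nearest motor gene outside was KIF26A, an atypical kinesin without motility, at 3.63, and the nearest gene inside was KIFC3, a minus-end motor of epithelial junctions, at 4.94. All 6 antisense probe sets lay below the filter. A value of one probe set cannot be read as more or less RNA than that of another, because probes differ in affinity.

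**Figure D1:**
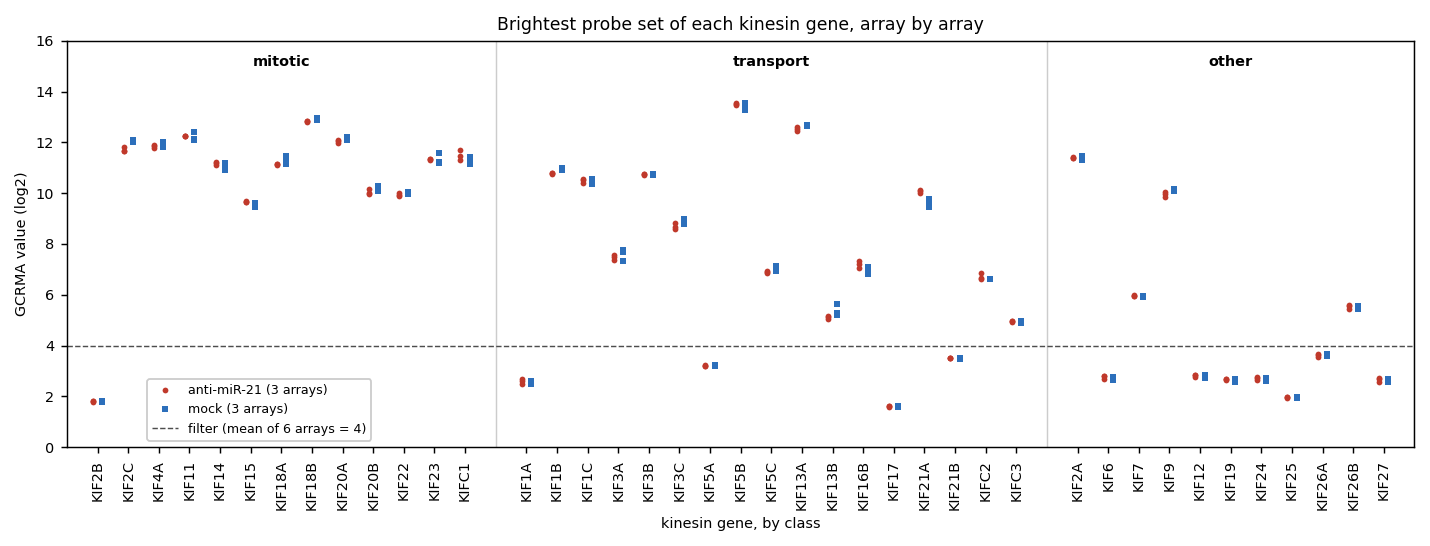
GCRMA log2 values of the brightest probe set of each of 41 kinesin genes, grouped by class, with 3 anti-miR-21 arrays as circles to the left of 3 mock arrays as squares. All mitotic kinesins except KIF2B lie above the dashed filter at 4, whereas transport kinesins include 4 genes below it.

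The promoters of the expressed mitotic kinesins shared sequence that the choice of genes did not use. Many late cell cycle genes carry a CHR element, the site bound by DREAM and by the MuvB complexes with B-MYB or FOXM1, close to the transcription start, often with CCAAT boxes bound by NF-Y. Both were searched as exact letters (TTTGAA or TTCGAA for the CHR element, CCAAT for the box) on both strands in RefSeq windows from 250 bases before to 50 bases after the start, with the first listed start of each gene. The motifs cannot overlap each other in these letters by more than an end base. All 12 expressed mitotic kinesins had a window, as did 10 of 13 expressed transport kinesins.

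A CHR element lay in 10 of the 12 mitotic windows (83.3%), in 1 of the 10 transport windows (10.0%) and in 16.6% of 27305 windows, 1 for each gene. A CCAAT box lay in 10 of the 12 mitotic windows (83.3%), 3 of the 10 transport windows (30.0%) and 35.7% of all windows. Both lay in 9 mitotic windows (75.0%), 1 transport window and 6.58% of all windows. KIF15 had the CHR element alone, KIF20A had the CCAAT box alone, and KIF2C had neither in the letters searched. Other spellings of the CHR element were not searched, so KIF2C cannot be said to lack one. The transport gene with both was KIF5B, with its CHR element 140 bases before the start, whereas the mitotic elements began between 55 bases before and 31 bases after it. A match describes letters and not a bound site.

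**Figure D2:**
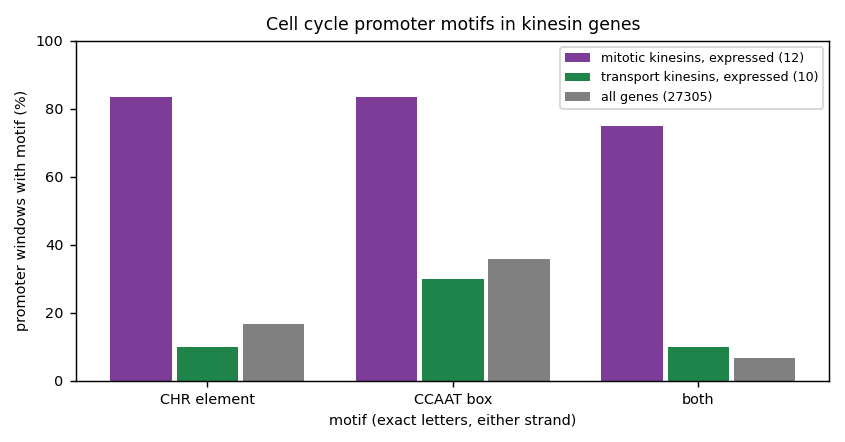
Share of promoter windows holding a CHR element, a CCAAT box or both, in percent, for 12 expressed mitotic kinesins, 10 expressed transport kinesins and 27305 windows of all genes. The CHR element was found in 83.3% of mitotic kinesin windows, 10.0% of transport kinesin windows and 16.6% of all windows.

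Windows of 5 kinesins are shown 5' to 3' on the gene's strand (RefSeq, GRCh38.p14), with CHR elements and CCAAT boxes in capitals in either orientation. KIF4A and KIF18A show the arrangement with both motifs, and KIF5B is the transport motor that has them. KIF2C and KIF21A have neither in the letters searched. Their representative probe sets had the smallest p values of their classes in the treatment comparison.
KIF4A (chrX:70289854-70290153, plus strand): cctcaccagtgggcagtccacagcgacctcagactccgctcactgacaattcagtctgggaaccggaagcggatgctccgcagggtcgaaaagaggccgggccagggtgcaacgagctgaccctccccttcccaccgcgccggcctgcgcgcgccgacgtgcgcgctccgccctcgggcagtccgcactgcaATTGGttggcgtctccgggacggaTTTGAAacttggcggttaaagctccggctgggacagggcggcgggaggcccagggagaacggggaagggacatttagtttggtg
KIF18A (chr11:28108107-28108406, minus strand): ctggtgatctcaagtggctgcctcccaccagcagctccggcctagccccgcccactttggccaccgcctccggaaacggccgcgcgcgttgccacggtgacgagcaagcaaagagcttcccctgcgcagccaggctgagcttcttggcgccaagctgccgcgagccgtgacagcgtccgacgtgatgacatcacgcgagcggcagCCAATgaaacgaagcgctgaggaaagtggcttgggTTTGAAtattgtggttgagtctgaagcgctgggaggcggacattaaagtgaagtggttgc
KIF2C (chr1:44739587-44739886, plus strand): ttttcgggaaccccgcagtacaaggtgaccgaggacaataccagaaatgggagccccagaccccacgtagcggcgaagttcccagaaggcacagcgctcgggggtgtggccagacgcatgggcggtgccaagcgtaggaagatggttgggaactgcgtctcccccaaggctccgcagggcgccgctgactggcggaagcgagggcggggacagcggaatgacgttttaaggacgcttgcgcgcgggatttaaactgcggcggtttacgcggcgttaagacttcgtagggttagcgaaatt
KIF5B (chr10:32056376-32056675, minus strand): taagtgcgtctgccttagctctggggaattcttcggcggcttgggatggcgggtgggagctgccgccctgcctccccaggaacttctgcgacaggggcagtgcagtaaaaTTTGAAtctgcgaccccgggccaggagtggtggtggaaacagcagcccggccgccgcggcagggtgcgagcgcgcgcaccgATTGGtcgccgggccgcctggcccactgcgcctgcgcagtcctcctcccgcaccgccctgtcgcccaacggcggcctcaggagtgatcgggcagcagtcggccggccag
KIF21A (chr12:39443071-39443370, minus strand): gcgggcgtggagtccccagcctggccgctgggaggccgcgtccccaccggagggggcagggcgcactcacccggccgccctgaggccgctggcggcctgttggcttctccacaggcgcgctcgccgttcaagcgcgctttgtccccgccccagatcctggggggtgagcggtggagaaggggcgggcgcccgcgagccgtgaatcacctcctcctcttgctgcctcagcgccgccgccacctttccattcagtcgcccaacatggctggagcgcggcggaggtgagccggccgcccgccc

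In KIF4A the inverted CCAAT box began 58 bases and the CHR element 34 bases before the start. In KIF18A the CCAAT box began 45 bases and the CHR element 10 bases before it. In KIF5B the inverted CCAAT box lay nearer to the start, at 59 bases before it, than the CHR element. No capitals appear in the KIF2C and KIF21A windows, which says only that these letters are not in them.

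The treatment comparison asked which kinesin transcripts differed between anti-miR-21 and mock cells. No kinesin gene passed on its representative (brightest) probe set in either direction, at a limma adjusted p below 0.05 over all 22408 probe sets tested. Across all 10848 genes, 0.913% passed upward and 1.22% passed downward, 2.13% in all. At an unadjusted p below 0.05, 2 of the 29 genes were higher and 5 were lower, where 6.84% and 11.3% of all genes were. Arrays did not overlap between treatments for 2 kinesin genes on the higher side and 6 on the lower side, against 10.4% and 15.1% of all genes. At the level of probe sets, 1 of 50 passed, a second probe set of KIF3C, which fell (1.07% of all probe sets passed downward and 1.1% upward, 2.17% in all).

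The differences were small. Of the 29 genes, 25 lay within 0.2 log2 units of no difference, with a median standard error of 0.069, and the median size of the difference was 0.122, against 0.081 over all genes. The extremes were KIF2C at -0.32 and KIF21A at 0.45.

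KIF2C, which removes tubulin at centromeres and corrects faulty chromosome attachments, had the smallest p of the mitotic class. Its representative read 11.83, 11.66 and 11.67 in anti-miR-21 arrays, against 12.01, 12.03 and 12.08 in mock arrays. Every anti-miR-21 array lay below every mock array, and the mock arrays spanned 0.065. The log2 fold change was -0.32 ± 0.063 SE (1.25-fold lower, 95% interval -0.47 to -0.17), with a limma adjusted p of 0.0569. A second probe set of KIF2C read 10.14, 10.05 and 10.14 in anti-miR-21 arrays, against 10.36, 10.27 and 10.52 in mock arrays, also without overlap. Its log2 fold change was -0.28 ± 0.075 SE (limma adjusted p = 0.122). KIF2C passed under 5 of 15 other settings, among them a filter at 6 (limma adjusted p = 0.041) and the omission of anti-miR-21 replicate 1 (limma adjusted p = 0.0354), with a log2 fold change of -0.38 to -0.29 throughout.

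Motors of chromosome alignment lay slightly lower without passing. KIF18A, which dampens chromosome oscillation at the spindle equator, read 11.16, 11.09 and 11.17 with anti-miR-21, against 11.48, 11.33 and 11.16 in mock, so that mock replicate 3 fell within the anti-miR-21 range. Its log2 fold change was -0.19 ± 0.084 SE (limma adjusted p = 0.309). KIF18B, a plus-end motor that shortens astral microtubules, read 12.86, 12.84 and 12.81 with anti-miR-21 and 12.90, 12.87 and 12.96 in mock. Those arrays did not overlap, but the log2 fold change was only -0.07 (limma adjusted p = 0.49). The chromokinesin KIF22, which pushes chromosome arms outward, had a log2 fold change of -0.07 on its representative and -0.03 on its second probe set.

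Midzone and cytokinesis motors had differences of either sign, and none passed. KIF20A, which brings the chromosomal passenger complex to the midzone, read 12.10, 12.05 and 11.97 with anti-miR-21, against 12.23, 12.08 and 12.18 in mock (log2 fold change -0.12 ± 0.062 SE, limma adjusted p = 0.361). KIF4A, which sets midzone length with PRC1, had a log2 fold change of -0.09 ± 0.068 SE, and its probe set may also detect the near-identical copy KIF4B. KIF14, which works with citron kinase in abscission, was at 0.16 on one probe set and 0.22 on the other (limma adjusted p = 0.390 and 0.391). KIF23, the motor of centralspindlin, was at -0.003 ± 0.105 SE. It read 11.36, 11.34 and 11.30 with anti-miR-21 and 11.58, 11.23 and 11.19 in mock, with mock replicate 1 above all other arrays.

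None of the spindle pole motors passed, and KIF15 was the one whose arrays did not overlap. KIF11, the bipolar motor that separates the poles, read 12.25, 12.26 and 12.25 with anti-miR-21 and 12.41, 12.07 and 12.13 in mock. The anti-miR-21 arrays lay inside the mock range, and the 95% interval of the difference was -0.17 to 0.27. KIF15, which can take over part of the work of KIF11, read 9.70, 9.66 and 9.65 with anti-miR-21 and 9.60, 9.48 and 9.47 in mock. Among the expressed mitotic kinesins it alone had all anti-miR-21 arrays above all mock arrays, and its log2 fold change was 0.15 ± 0.055 SE (limma adjusted p = 0.224). KIFC1, which focuses spindle poles from the minus end, read 11.29, 11.69 and 11.45 with anti-miR-21 and 11.41, 11.14 and 11.39 in mock, a log2 fold change of 0.16 ± 0.120 SE.

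Among the representative probe sets of transport kinesins the largest difference was in KIF21A, a kinesin-4 motor that restrains microtubule growth at the cell cortex and is enriched in neurons. It read 9.99, 10.07 and 10.11 in anti-miR-21 arrays, against 9.78, 9.58 and 9.45 in mock arrays. The groups did not overlap, and the mock arrays were spread over 0.331. The log2 fold change was 0.45 ± 0.090 SE (1.37-fold, 95% interval 0.23 to 0.67), with a limma adjusted p of 0.0641. KIF21A passed under 5 of 15 other settings (limma adjusted p = 0.00298 to 0.207 over all 15), among them median centring (0.047), quantile normalization (0.0496) and the omission of mock replicate 1 (0.0328). A dim second probe set at 4.13 had a log2 fold change of 0.20 ± 0.151 SE with overlapping arrays.

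KIF3C, a kinesin-2 heavy chain, was measured by a pair of probe sets of nearly equal mean, 8.79 and 8.78, that differed in size of change. The brighter one, which represents the gene, read 8.84, 8.57 and 8.67 with anti-miR-21 and 8.78, 8.99 and 8.89 in mock. Its groups overlapped, and its log2 fold change was -0.19 ± 0.087 SE (limma adjusted p = 0.314). With anti-miR-21 replicate 1, 2 or 3 left out, the other probe set became the brighter one and the gene's log2 fold change was -0.491, -0.415 or -0.474, without passing. The other read 8.61, 8.46 and 8.58 with anti-miR-21 and 8.89, 9.01 and 9.13 in mock. It fell by 0.46 ± 0.077 SE (1.38-fold lower, limma adjusted p = 0.0374), without overlap. That call was lost without anti-miR-21 replicate 1, 2 or 3 and without mock replicate 2 or 3 (limma adjusted p = 0.0563 to 0.141), without the filter (0.07) and with median centring (0.0594). The difference between these probe sets was not tested.

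The other kinesin-2 subunits, which with KIFAP3 carry ciliary and membrane cargo, did not pass, and their difference from the second KIF3C probe set was not tested. KIF3A, which pairs with KIF3B or KIF3C, had log2 fold changes of -0.13 and -0.14 on its probe sets (limma adjusted p = 0.62 and 0.692). KIF3B read 10.75, 10.77 and 10.73 with anti-miR-21 and 10.74, 10.76 and 10.71 in mock, a log2 fold change of 0.01 ± 0.046 SE. KIFAP3, the adaptor of the complex, was at -0.04 ± 0.050 SE.

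KIF1B, a motor for mitochondria and synaptic vesicle precursors, lay lower on 2 of its 3 expressed probe sets without passing. The representative read 10.79, 10.79 and 10.77 with anti-miR-21, against 10.98, 10.90 and 10.98 in mock (log2 fold change -0.17 ± 0.048 SE, limma adjusted p = 0.14). A second read 9.64, 9.63 and 9.84 with anti-miR-21, against 10.14, 9.97 and 9.94 in mock (log2 fold change -0.32 ± 0.083 SE, limma adjusted p = 0.119). Neither overlapped between treatments, whereas the other one, at a mean of 8.29, was at -0.02 ± 0.055 SE. KIF13A, an endosome motor, had all 4 expressed probe sets between -0.24 and -0.05, and its representative read 12.46, 12.59 and 12.52 with anti-miR-21, against 12.69, 12.65 and 12.67 in mock (limma adjusted p = 0.231).

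The expressed conventional kinesin heavy chains had differences of either sign, none passed, and the difference between them was not tested. KIF5B, the heavy chain found in most cell types, read 13.51, 13.56 and 13.49 with anti-miR-21 and 13.55, 13.40 and 13.26 in mock. Across 3 probe sets its log2 fold changes lay between 0.08 and 0.12, none called. KIF5C, a heavy chain enriched in neurons, read 6.94, 6.89 and 6.84 with anti-miR-21 and 7.11, 6.93 and 7.13 in mock (log2 fold change -0.17 ± 0.069 SE, limma adjusted p = 0.267). KIF13B, a motor of membrane-associated cargo, was at -0.27 ± 0.119 SE with mock replicate 2 at 5.65 and the other mock arrays at 5.22 and 5.27. KIF16B, which moves early endosomes, was at 0.23 ± 0.101 SE (limma adjusted p = 0.304 for KIF13B and 0.307 for KIF16B).

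**Figure D3:**
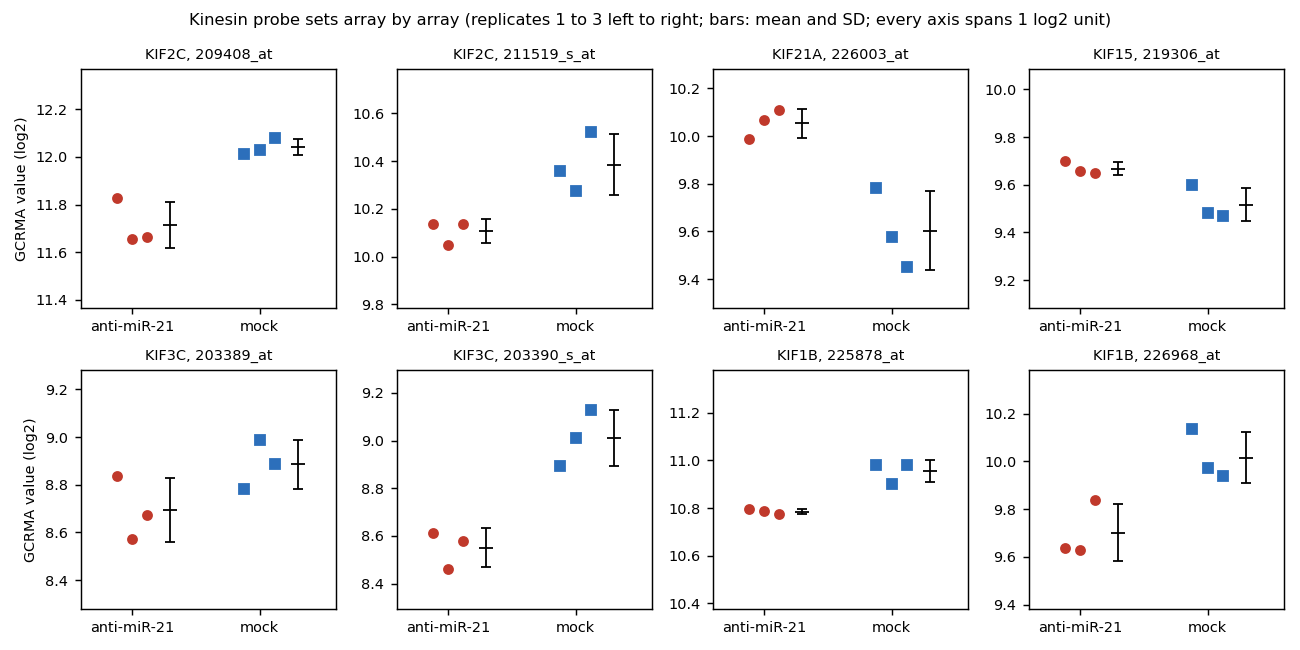
GCRMA log2 values of 8 kinesin probe sets in 3 anti-miR-21 arrays (circles, left) and 3 mock arrays (squares, right), with mean and SD as bars and every axis spanning 1 log2 unit. Among these 8 the groups do not overlap except for the first KIF3C probe set, where anti-miR-21 replicate 1 at 8.84 lies above mock replicate 1 at 8.78. The 8 were picked for display and do not stand for the family. The groups overlap for 21 of the 29 expressed kinesin genes, and 25.5% of all genes do not overlap. Overlapping probe sets of KIF1B and KIF21A are not shown.

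Kinesins of the remaining class were close between treatments. KIF2A, a depolymerase relative of KIF2C, KIF7, which organises the cilium tip for Hedgehog signalling, and KIF26B, an atypical kinesin, had log2 fold changes of 0.03, 0.02 and 0.03. Each turned negative with median centring (-0.013, -0.018 and -0.007). That setting moved the median over all genes from -0.0184 to -0.0564. KIF9, known from cilia, read 10.06, 9.87 and 9.95 with anti-miR-21 and 10.08, 10.16 and 10.12 in mock (log2 fold change -0.16 ± 0.064 SE, limma adjusted p = 0.266). All 3 of its expressed probe sets are of the x type, whose probes may also bind other transcripts, and 1 of them was at -0.004.

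Probe sets of one gene mostly shared a sign. Among the 16 kinesin genes with more than 1 expressed probe set, 14 had all of them on the same side of no difference, and KIF20B and KIF2A did not. KIF1B had the widest spread between probe sets, at 0.293, followed by KIF3C at 0.270 and KIF21A at 0.252.

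Mitotic and transport kinesins were then set side by side. The median log2 fold change was -0.072 over 12 mitotic kinesins, of which 8 were negative, and 0.013 over 13 transport kinesins, of which 6 were negative, against -0.018 over all genes, of which 56.7% were negative. The sign of the transport median was not settled, at -0.025 with median centring, -0.0145 with array weights, -0.00203 with quantile normalization and -0.000983 without mock replicate 3. In that order, the median over all genes was -0.0564, -0.0127, -0.0191 and -0.0146 under these settings. The difference of the class medians, mitotic minus transport, was -0.085, with and without median centring. It is given as a description, since the genes were not chosen independently of these data.

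Array by array, the mitotic median varied most among the mock arrays. As a deviation from each gene's mean over the 6 arrays, it was 0.004, -0.038 and -0.046 in anti-miR-21 replicates 1, 2 and 3, and 0.115, -0.043 and -0.018 in mock replicates 1, 2 and 3. Mock replicate 1 thus lay above all other arrays, and the other mock arrays lay within the anti-miR-21 range. For transport kinesins it ran from -0.048 to 0.010 over the anti-miR-21 arrays, against -0.034 to -0.0025 over the mock arrays. The mitotic minus transport difference per array was -0.006, -0.032 and 0.002 with anti-miR-21, and 0.122, -0.041 and 0.016 in mock. Of the 12 mitotic kinesins, 5 were highest in mock replicate 1 and 4 in mock replicate 3, where 2036 and 3169 of all 10848 genes were. For 10 of the 12 mitotic kinesins, the range of the mock arrays exceeded the difference between treatments. The same held for 9 of 13 transport kinesins and 3 of 4 others, and the share over all genes was not counted. Without mock replicate 1, 2 or 3, the mitotic median was -0.054, -0.092 or -0.050 and the difference of class medians -0.066, -0.119 or -0.049.

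**Figure D4:**
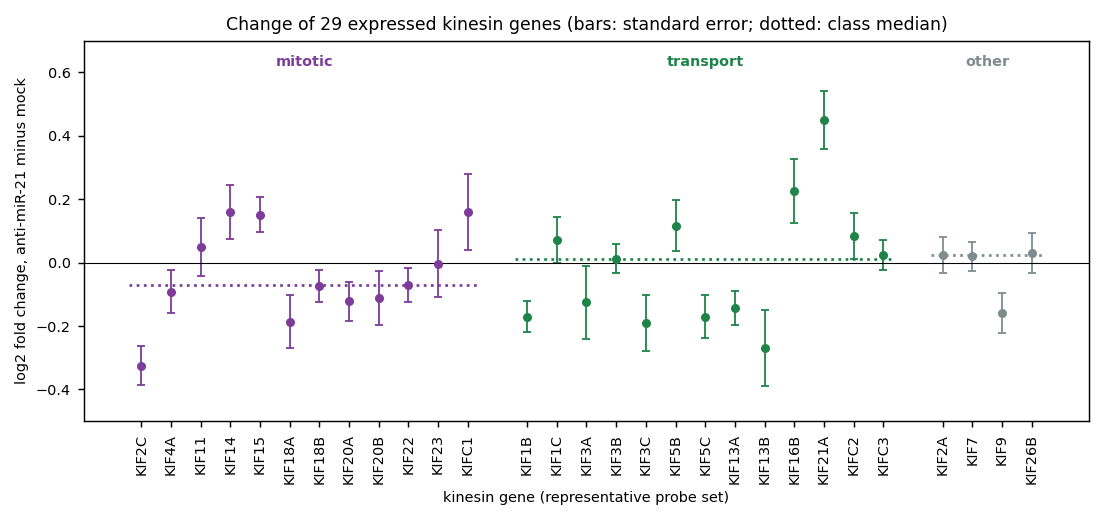
Log2 fold changes, anti-miR-21 minus mock, with standard errors for the representative probe sets of 29 expressed kinesin genes, and class medians as dotted lines. The mitotic median lies at -0.072 and the transport median at 0.013, and KIF2C at -0.32 and KIF21A at 0.45 are the extremes.

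**Figure D5:**
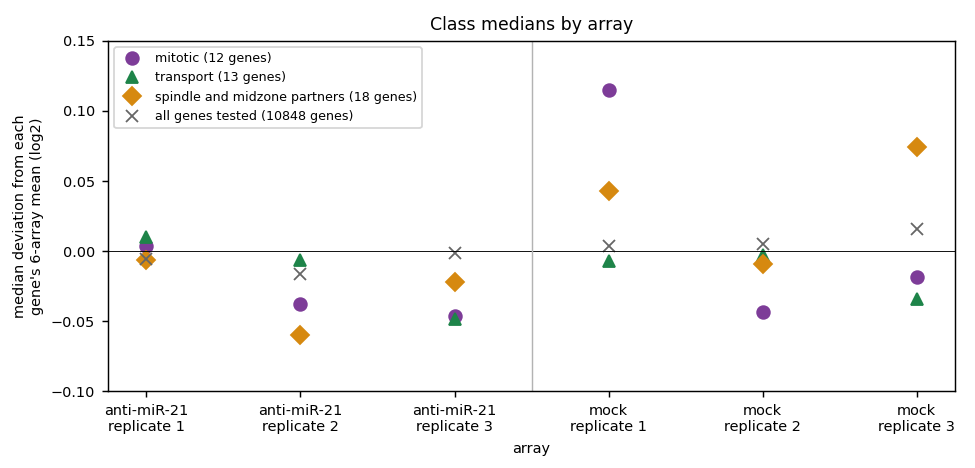
Median deviation of each class from its genes' 6-array means, in log2 units, with the 3 anti-miR-21 arrays left of the 3 mock arrays. Mitotic kinesins stand at 0.115 in mock replicate 1 and between -0.046 and 0.004 in the other 5 arrays, whereas transport kinesins stay between -0.048 and 0.010.

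Proteins that act with mitotic kinesins were examined as a list of 20 spindle and midzone partners, 18 of them expressed. One of these fell and none rose, where 1.22% and 0.913% of all genes did. The log2 fold change was negative for 13 of 18, against 56.7% of all genes, and its median was -0.064, against -0.018 over all genes. The one that fell was RACGAP1, a GTPase-activating protein that forms centralspindlin with KIF23. It read 13.30, 13.26 and 13.27 with anti-miR-21, against 13.71, 13.56 and 13.65 in mock (log2 fold change -0.36 ± 0.056 SE, 1.28-fold lower, limma adjusted p = 0.03). KIF23 itself was at -0.003. The RACGAP1 call was lost with any 1 of the 6 arrays left out (limma adjusted p = 0.0563 to 0.133). The mitotic kinases PLK1 and AURKA, which direct spindle assembly, were at -0.31 ± 0.093 SE and -0.22 ± 0.067 SE (limma adjusted p = 0.153 and 0.156), and of the other AURKA probe sets one was at -0.18 (limma adjusted p = 0.242) and a dim one, with a mean of 6.22, at 0.13 (limma adjusted p = 0.504). CDCA8, a passenger complex subunit, was at -0.11 ± 0.049 SE (limma adjusted p = 0.292). CENPE, a centromere kinesin outside the naming rule, was at -0.13 ± 0.120 SE.

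Cargo adaptors showed no call. Of 22 light chains and adaptors, 17 were expressed and none passed in either direction, where 2.13% of all genes did. The log2 fold change was negative for 13 of them, against 56.7% of all genes, and its median was -0.039, against -0.018 over all genes. At an unadjusted p below 0.05, 1 was lower and none higher, where 11.3% and 6.84% of all genes were. That was BORCS5, a subunit of the BORC complex that couples lysosomes to kinesin through ARL8, which read 7.80, 7.43 and 7.73 with anti-miR-21, against 7.94, 8.01 and 8.10 in mock (log2 fold change -0.36 ± 0.103 SE, limma adjusted p = 0.139). TRAK2, which links KIF5 motors to mitochondria, was at -0.13 ± 0.060 SE, PLEKHM2, the SKIP adaptor of lysosomes, at -0.11 ± 0.068 SE, and the scaffold MAPK8IP2 at 0.28 ± 0.127 SE (limma adjusted p = 0.319, 0.437 and 0.315). A second TRAK2 probe set was at -0.20 ± 0.082 SE (limma adjusted p = 0.274). TRAK1, also on this list, was at -0.09 ± 0.052 SE on its representative (limma adjusted p = 0.447). Its other expressed probe sets ran from -0.43 ± 0.086 SE (limma adjusted p = 0.0613) to 0.22 ± 0.224 SE (limma adjusted p = 0.652). The light chains KLC1 and KLC2, the cargo-binding partners of KIF5 heavy chains, were at -0.06 ± 0.057 SE and -0.04 ± 0.056 SE.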

How the data were processed

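RNA from 6 SK-Hep1 cultures (3 anti-miR-21, 3 mock) was hybridised to 1 single-colour array each. The authors deposited GCRMA values on a log2 scale for each probe set, per the submitters' processing notes; its version was not given in the sources read. GCRMA corrects background by probe sequence and draws dim values together, so differences of dim probe sets are less certain. Values ran from 0.0443 to 16.2 and were used without further normalization. Gene names came from the platform's probe annotation, updated through Entrez identifiers against RefSeq (GRCh38.p14), and no kinesin symbol changed.

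Non-control probe sets with a mean of at least 4 were kept (22408). Each gene was represented by the brightest of its kept probe sets that list 1 gene. Differences were fitted with lmFit and eBayes of limma 3.58.1 (R 4.3.3) on the 2 groups without covariates. Tests were two-sided, p values were adjusted by Benjamini and Hochberg's method across all kept probe sets, and 0.05 was the threshold. The fit was also run on simulated data with independent noise and with changes larger than those of the kinesins. That run does not bear on differences as small as these. Precision is limited by 3 arrays a group. Errors are SD over arrays or SE of the fit, and each log2 fold change is the anti-miR-21 mean less the mock mean.

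Members, classes and lists were chosen with earlier results of these data known, so lists carry no test. Named genes were those with a called probe set, the 8 smallest p values in the mitotic and transport classes, the 4 smallest among other kinesins, the 4 kinesins with the brightest probe sets, KIF26A as nearest to the filter and the 4 smallest p values in each partner list. Genes named beyond these were chosen after their values were seen. The alternatives are listed in the closing section, and applying them to partner genes was decided after seeing the data.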

Additional observations from a re-analysis of the deposited data

How the results depend on the processing

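Among 21 named kinesin genes, 308 repeats under other settings kept direction and side of the threshold in 282, gained a call in 18 and changed sign in 8. No named kinesin lost a call, since none had one. The sign changes were those of KIF26B (-0.00717), KIF7 (-0.0179) and KIF2A (-0.0129) with arrays centred on their medians, KIF2A with all probe sets averaged (-0.0494) or with probe sets of types s, x and a left out (-0.124), and, with 1 array left out, KIF26B (-0.0057 to 0.0757), KIF2A (-0.00187 to 0.069) and KIF11 (-0.0153 to 0.153). Among the partner genes, repeats added after seeing the data turned AURKA to 0.131 with probe sets of types s, x and a left out.

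Kinesin genes called higher numbered 1 (KIF21A) with the filter at 6, with median centring and with quantile normalization, and 4 with array weights. In that order, 125 of 9745, 76 of 10848, 106 of 10849 and 971 of 10848 genes were called higher over all genes. Kinesin genes called lower numbered 1 (KIF2C) with the filter at 6, with trend and robust settings and with probe sets averaged, and 6 with array weights. Over all genes, 188 of 9745, 163 of 10848, 194 of 10848 and 1470 of 10848 were called lower, in that order. Leaving out each array gave 0 to 1 in each direction, and 14 to 91 higher and 24 to 135 lower over all genes. Kinesin probe sets called higher were 1 with the filter at 6, with median centring and with quantile normalization, 5 with array weights and 0 to 1 with an array left out. Those called lower were 2 with the filter at 6 and with trend and robust settings, 0 without the filter, with median centring and with the replicate block, 10 with array weights and 0 to 1 with an array left out. Counts over all probe sets were not made under these settings. Array weights gave mock replicate 2 a weight of 7.43 and the others 0.381 to 1.45, and called 971 genes higher and 1470 lower over all genes.

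The mitotic median stayed negative under all settings (-0.11 to -0.0154). With KIF2A counted as mitotic it was -0.0703, and the difference of class medians was -0.0832. The transport median was -0.0251 with median centring and -0.0145 with array weights, where the median over all genes was -0.0564 and -0.0127. The difference of medians was -0.0847 with median centring, as in the main fit, and -0.000923 with array weights. Spindle and midzone partners called lower were 0 with probe sets of types s, x and a left out and with the replicate block, 3 with array weights and 0 with any array left out. Light chains and adaptors called lower were 2 with array weights. Over all genes, array weights called 1470 of 10848 lower.

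Same-numbered arrays did not deviate together (r = -0.361, -0.266 and -0.002 for numbers 1, 2 and 3 over kept probe sets). Deviations were taken from the mean of each group of 3 arrays, so these values depend on each other. They cannot show whether the numbers pair the samples, and the labels do not say. With the replicate block 0 kinesin genes were called, and over all genes 16 were higher and 16 lower, against 99 and 132. The cause of these changes was not tested. Background correction could not be varied from the deposited values, and 3 arrays a group limit what can be called.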
